A study of Mus musculus with 16 samples.

Results

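The cytokine receptors of splenic B-cells considered here are 10 genes, Il2ra, Il2rg, Il4ra, Il21r, Il9r, Il5ra, Il10ra, Ifngr1, Ifnar1 and Tnfrsf1b, chosen by name from the 38355 genes of the RNA-Seq data. Expression was measured in 4 subsets sorted from the spleen, the immature transitional stages T1 and T2 and the mature marginal zone (MZ) and follicular (FO) subsets, from Mir146a-/- (KO) mice, which lack miR-146a in all cells, and from wild-type (WT) mice, all on the C57BL/6 background. Each of the 8 groups had 2 biological replicates, which gave 16 libraries. Each library came from spleens pooled from several mice, so the spread between replicates is that between pools, and the labels give no age for the mice.

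Cytokine receptors are built from chains that pair on the cell surface. Il2ra, Il4ra, Il21r and Il9r encode chains that bind a single cytokine or few. Receptors that combine them with the common γ chain, Il2rg, signal through the kinases JAK1 and JAK3 to STAT factors. IL-4 and IL-21 come mainly from T cells and drive B-cell activation, class switching and plasma cell formation, while the subunit encoded by Il5ra works with the common β chain, Csf2rb. Il10ra, Ifngr1 and Ifnar1 encode chains of the receptors for IL-10, interferon γ and type I interferons, and Tnfrsf1b encodes TNF receptor type II, which binds TNF and lymphotoxin α and recruits TRAF proteins. MZ B-cells lie at the border of the splenic white pulp and respond early to blood-borne antigen, whereas FO B-cells enter T cell-dependent responses in the follicles.

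All 10 genes are protein-coding. On GRCm38 (the mm10 build of the files, positions from GENCODE M21), Il2ra (ENSMUSG00000026770) lies on chromosome 2 from 11642807 to 11693193, Il9r (ENSMUSG00000020279) on chromosome 11 from 32187541 to 32200279 and Tnfrsf1b (ENSMUSG00000028599) on chromosome 4 from 145213463 to 145246870. Il4ra (ENSMUSG00000030748, from 125552120 to 125579474) and Il21r (ENSMUSG00000030745, from 125603429 to 125633570) are neighbours on the plus strand of chromosome 7, with 24.0 kb between them. Il5ra lies on chromosome 6, Il10ra on chromosome 9, Ifngr1 on chromosome 10, Ifnar1 on chromosome 16 and Il2rg on chromosome X. The TruSeq RNA kit used for the libraries does not mark strand, so reads of Il10ra cannot be told apart from those of Gm20612, a gene on the opposite strand that reached 14.4 RPKM in its highest library and overlaps it. RPKM, the unit used throughout, counts reads per kilobase of exon, scaled to the reads of the library, so levels of different genes can be set side by side.

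The sequence absent from KO mice is shown first, with the seed (bases 2 to 8), which pairs with target mRNAs, in capitals, followed by its only match among the receptors. A match was a stretch of the 3′ UTR complementary to bases 2 to 8 of the miRNA (a 7mer-m8 site), or to bases 2 to 7 followed by A.
miR-146a-5p: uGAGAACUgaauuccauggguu
Il2ra site, chr2:11691929-11691955, plus strand: aaaagcagctAGTTCTCttaaccactg
The capitals in the second line are the bases complementary to the seed, and they begin 2157 bases after the stop codon in a 3′ UTR of 3411 bases. The 3′ UTRs of the other 9 genes, of 474 to 3071 bases, held no match in the longest GENCODE M21 transcript, so 1 of 10 receptors held a site, against 20.1% of the 10270 tested genes with such a UTR. A match is a description of these letters and not a site of repression.

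The stretches before the transcription start of Il9r, Il4ra, Il21r and Tnfrsf1b are shown because the first 3 genes differed by more than 2-fold between MZ and FO B-cells and the last shares its direction with Il9r. RefSeq windows of 250 bases before to 50 after the start (GRCm38.p6) were at hand for 9 of the 10 genes. Bases after an annotated start are left out. Capitals mark matches on either strand to the letters TTCNNNGAA (STAT), GTGGGAA (RBPJ), GGGA, any base and TTTCC (NF-κB), GAAA, any 2 bases and GAAA (IRF), TGTGGT (RUNX) or CAGGTG (E-box).
Il9r, chr11:32200280-32200529, minus strand: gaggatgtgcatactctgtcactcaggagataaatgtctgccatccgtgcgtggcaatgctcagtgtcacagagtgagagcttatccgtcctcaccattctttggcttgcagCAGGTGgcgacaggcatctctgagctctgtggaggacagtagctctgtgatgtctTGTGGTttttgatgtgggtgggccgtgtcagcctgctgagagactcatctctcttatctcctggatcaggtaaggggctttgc
Il4ra, chr7:125552021-125552119, plus strand: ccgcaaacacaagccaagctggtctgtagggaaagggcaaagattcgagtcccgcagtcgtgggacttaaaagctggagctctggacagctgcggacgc
Il21r, chr7:125603179-125603428, plus strand: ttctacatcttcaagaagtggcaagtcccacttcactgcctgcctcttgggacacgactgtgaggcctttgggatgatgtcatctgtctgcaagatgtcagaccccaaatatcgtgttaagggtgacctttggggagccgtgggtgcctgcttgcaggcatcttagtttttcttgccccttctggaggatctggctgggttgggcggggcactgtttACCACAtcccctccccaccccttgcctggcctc
Tnfrsf1b, chr4:145246871-145247120, minus strand: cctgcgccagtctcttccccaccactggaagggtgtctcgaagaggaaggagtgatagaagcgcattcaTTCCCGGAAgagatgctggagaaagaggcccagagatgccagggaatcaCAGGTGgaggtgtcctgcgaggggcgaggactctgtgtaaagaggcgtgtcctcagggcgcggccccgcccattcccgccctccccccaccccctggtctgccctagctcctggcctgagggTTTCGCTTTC
Il9r held an E-box and a RUNX match, Il21r a RUNX match, and Tnfrsf1b a STAT, an E-box and an IRF match. No window of the 9 genes matched the RBPJ or NF-κB letters. Over all 32851 RefSeq windows, 8.3% held the STAT letters, 6.38% the RBPJ letters, 0.411% the NF-κB letters, 3.44% the IRF letters, 16.8% the RUNX letters and 20.2% the E-box letters. The letters were chosen with the expression results known, and the shares of the receptors were 2, 0, 0, 1, 3 and 2 of 9 in the same order.

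The libraries held 9003343 to 26386684 reads assigned to genes. Mir146, the targeted gene, had 1 read in each WT FO library and 0 in the other 14 libraries, so these libraries do not check the genotype labels. The B-cell receptor component gene Cd79a had 771 to 1640.2 RPKM in every library. The complement receptor gene Cr2 had 723 to 974 RPKM in MZ, 19.3 to 29.4 RPKM in T1, 140.3 to 170.4 RPKM in T2 and 160.2 to 222 RPKM in FO libraries. The sort marker gene Cd93 had 26.6 to 36.4 RPKM in T1, 6.66 to 15.4 RPKM in T2, 1.17 to 2.55 RPKM in FO and 0.288 to 0.356 RPKM in MZ. Fcer2a, another sort marker gene, had 604 to 712 RPKM in T2, 622 to 751 RPKM in FO, 30.2 to 56.4 RPKM in T1 and 6.74 to 23.2 RPKM in MZ. The summed level of 7 plasma-cell markers was 3415 to 4517 RPKM in the T1 replicate 2 libraries of both genotypes, 811 to 1428 RPKM in the T1 replicate 1 libraries and 227 to 651 RPKM in the other subsets. The 10 T-cell markers summed to 1.92 to 19.7 RPKM and the 12 myeloid-cell markers to 76.8 to 135 RPKM in T2 and 9.31 to 106 RPKM in the other subsets. The T-cell marker sum was higher in the replicate 2 than in the replicate 1 libraries of every subset. Because the plasma-cell sums set the T1 replicates apart, called changes between T2 and T1 that are given below with values are also given without the replicate 1 or the replicate 2 libraries of T1 and T2.

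All 10 receptors were expressed well enough to be tested, with a mean above 1 RPKM in at least 1 group, as were 12507 of all genes. Il21r and Il4ra stood higher in the transitional and FO subsets than in MZ. Il2rg lay at 57.0 to 100.1 RPKM and Il10ra at 59.2 to 84.4 RPKM. Ifngr1, Ifnar1 and Il5ra lay at 16.8 to 43.3 RPKM, and Tnfrsf1b lay at 7.79 to 18.7 RPKM. Il9r had the widest range of the 10 genes, with 0.127 RPKM in its lowest library and 205 RPKM in its highest. Il2ra, at 0.271 to 8.55 RPKM, had the lowest mean over all libraries. In comparisons of subsets averaged over the genotypes, the genes called were Il9r, Il2ra, Il4ra and Il21r. The share of all tested genes called is given below for each comparison.

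**Figure D1:**
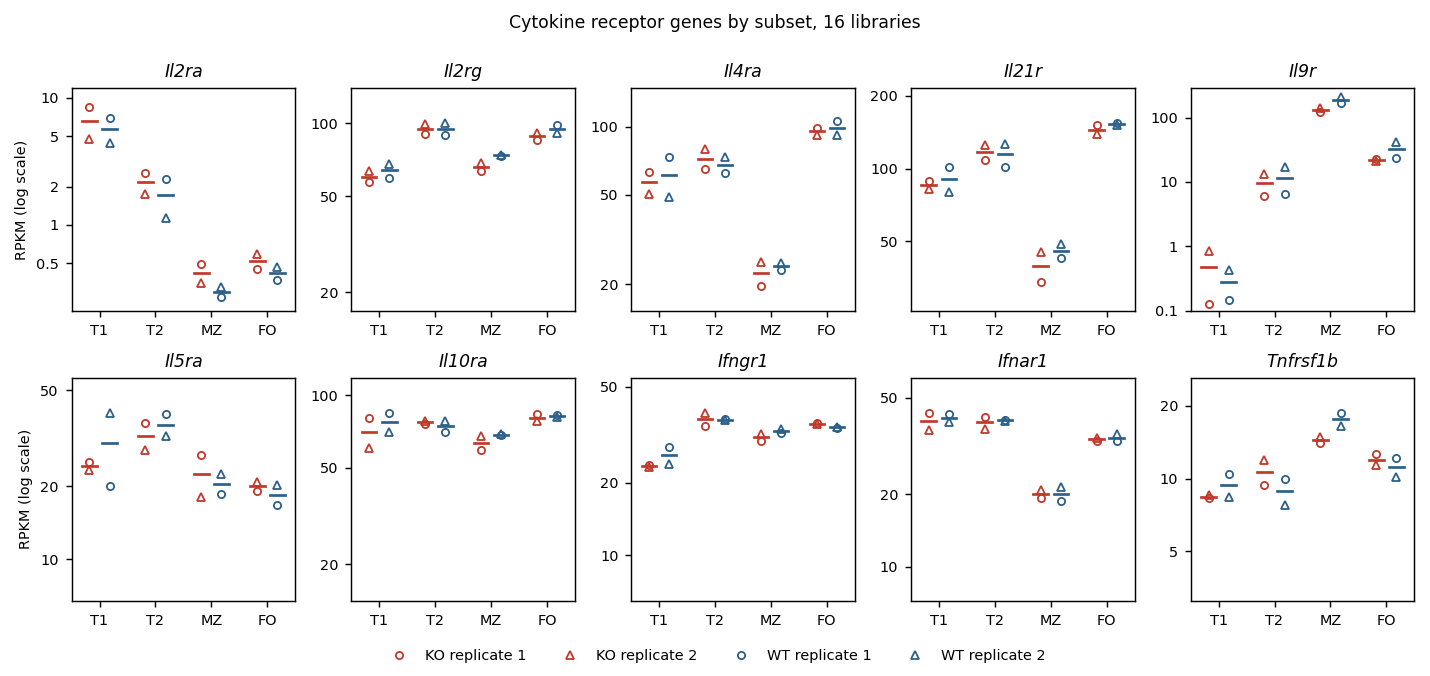
RPKM (log axis) of the 10 receptor genes in each of 16 libraries, by subset, with KO (red) left of WT (blue), replicate 1 as circles, replicate 2 as triangles and bars at the mean of 2 replicates. Il9r covers 0.127 to 205 RPKM with MZ libraries at the top, Il4ra and Il21r are lowest in MZ libraries, and Il2ra is highest in T1 libraries.

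Subsets were compared with limma on log2(RPKM + 0.5), averaged over KO and WT. A gene was called at a Benjamini-Hochberg adjusted p under 0.05, a change of more than 2-fold and a group mean above 1 RPKM. A gene that was not called can still have passed the adjusted p. Fold changes on this scale understate those of genes near 0. Between T2 and T1, 2 of the 10 receptors were called, where 5.43% of all tested genes were called. Il9r rose and Il2ra fell. Between MZ and T2, 4 of 10 were called against 10.8% of all genes, with Il9r higher and Il4ra, Il21r and Il2ra lower in MZ. Between FO and T2, 2 of 10 were called against 1.14%, and between MZ and FO, 3 of 10 against 9.2%. The median log2 change of the 10 receptors was 0.31 for T2 against T1, -0.55 for MZ against T2, 0.03 for FO against T2 and -0.24 for MZ against FO, beside medians over all tested genes of 0.08, 0.02, 0.00 and 0.04.

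**Figure D2:**
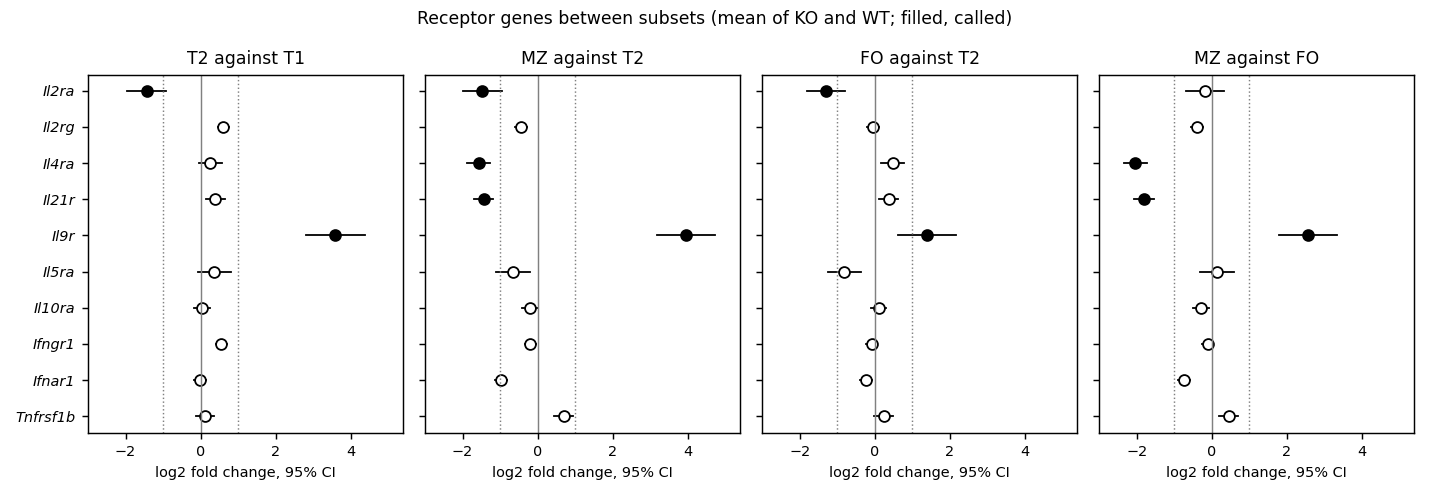
Log2 fold change with its 95% confidence interval for each receptor gene in 4 comparisons of subsets (n = 4 libraries per subset), with filled points for called genes and dotted lines at a 2-fold change. Il9r lies right of the upper line in all 4 comparisons, and Il4ra and Il21r lie left of the lower line in both comparisons with MZ.

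Il9r, the chain that binds IL-9, was near the detection limit in T1 B-cells and the most abundant of the 10 genes in MZ B-cells. In T1, KO libraries had 0.127 and 0.84 RPKM (7 and 60 reads) and WT libraries 0.145 and 0.422 RPKM (9 and 29 reads). In T2, KO libraries had 5.97 and 13.2 RPKM and WT libraries 6.38 and 16.9 RPKM. In MZ, KO libraries had 123 and 143 RPKM and WT libraries 168 and 205 RPKM. In FO, KO libraries had 22.7 and 21.1 RPKM and WT libraries 23.7 and 41.2 RPKM. No subset overlapped another, with means of 0.383 ± 0.333, 10.6 ± 5.32, 159.7 ± 35.2 and 27.2 ± 9.39 RPKM in T1, T2, MZ and FO (SD, n = 4 each).

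Il9r rose in T2 against T1 by 3.59 on the log2 scale (95% interval 2.82 to 4.37, limma adjusted p = 6.92e-05). It was higher in MZ than in T2 by 3.96 (3.18 to 4.73, adjusted p = 8.37e-06) and higher in MZ than in FO by 2.56 (1.78 to 3.34, adjusted p = 2.12e-04). In FO against T2 the change was 1.4 (0.62 to 2.17, adjusted p = 0.0378). In both transitional subsets and both genotypes the replicate 2 library had more Il9r than the replicate 1 library, by 2.2 to 6.63 times. The T-cell marker sum was also higher in replicate 2, at 15.5 to 16 RPKM against 1.92 to 3.59 RPKM in T1 and 13.5 to 19.7 RPKM against 5.6 to 8.35 RPKM in T2, and its part in the Il9r values was not tested. Without the transitional replicate 1 libraries the changes were 3.79 in T2 against T1, 3.35 in MZ against T2 and 0.79 in FO against T2, and without the replicate 2 libraries 3.39, 4.56 and 2.00. The call in FO against T2 was lost without the replicate 1 libraries (adjusted p = 0.127). It was also lost when a single library was left out, for each of the FO libraries (1.37 and 1.42 without KO replicates 1 and 2, 1.59 and 1.2 without WT replicates 1 and 2), for the replicate 1 T2 libraries (1.13 without KO, 1.06 without WT) and for each MZ library (1.4, adjusted p = 0.0523 to 0.0585). That call was lost as well at pseudocount 0.1, with no filter on low values and with only the libraries compared (limma adjusted p = 0.0681 to 0.0747). The 3 other changes of Il9r were called under every alternative run.

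Il2ra encodes the α chain (CD25) that raises the affinity of the IL-2 receptor, and it fell in steps after T1. The T1 libraries had 8.55 and 4.71 RPKM in KO and 6.94 and 4.42 RPKM in WT. The T2 libraries had 2.58 and 1.75 RPKM in KO and 2.31 and 1.14 RPKM in WT. All MZ and FO libraries lay between 0.271 and 0.594 RPKM, on 25 to 75 reads each. T1 lay above T2 and T2 above both mature subsets without overlap, and MZ and FO overlapped. In bulk samples, fewer cells with Il2ra and less Il2ra per cell cannot be told apart.

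Il2ra was lower in T2 than in T1 (log2 change -1.44, 95% interval -1.95 to -0.93, adjusted p = 0.0013), lower in MZ than in T2 (-1.48, -1.99 to -0.96, adjusted p = 4.78e-04) and lower in FO than in T2 (-1.30, -1.81 to -0.79, adjusted p = 0.014). In the transitional subsets the replicate 2 libraries had 0.493 to 0.676 times the Il2ra of the replicate 1 libraries. In T1, replicate 2 had less Il2ra but a higher T-cell marker sum, 15.5 to 16 RPKM against 1.92 to 3.59 RPKM in replicate 1. The plasma-cell marker sum was also higher in T1 replicate 2, at 3415 to 4517 RPKM against 811 to 1428 RPKM. The part of either cell type in the Il2ra values was not tested. Without the transitional replicate 1 libraries the changes were -1.4, -1.17 and -0.99, and the last was no longer called because it fell short of 2-fold. Without the replicate 2 libraries they were -1.48, -1.78 and -1.61, and all 3 were called. The call in FO against T2 was also lost without KO T2 replicate 1 (-1.19), KO FO replicate 1 (-1.25) and WT FO replicate 1 (-1.26). At pseudocount 1 the change in FO against T2 was -0.98, short of 2-fold, and the call was lost.

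Il4ra and Il21r had the lowest levels in MZ B-cells and the highest in FO B-cells. Il4ra, the α chain for IL-4 and IL-13, had 19.7 and 25 RPKM in KO MZ and 23.2 and 24.9 RPKM in WT MZ libraries. It had 99.0 and 91.4 RPKM in KO FO and 106 and 92.3 RPKM in WT FO libraries. T1 libraries spanned 48.7 to 73.2 RPKM and T2 libraries 62.3 to 79.2 RPKM, so that transitional subsets overlapped each other and neither MZ nor FO. Il4ra was lower in MZ than in FO (log2 change -2.04, 95% interval -2.35 to -1.74, adjusted p = 1.30e-06) and than in T2 (-1.57, -1.88 to -1.26, adjusted p = 8.25e-06).

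Il21r, whose ligand promotes plasma cell formation, had 34.0 and 45.0 RPKM in KO MZ and 42.7 and 48.7 RPKM in WT MZ libraries. It had 151 and 139 RPKM in KO FO and 154 and 152 RPKM in WT FO libraries, with T1 at 80.0 to 102 RPKM and T2 at 102 to 127 RPKM. MZ libraries were thus below all others and FO libraries above all others. The log2 change was -1.81 in MZ against FO (-2.06 to -1.55, adjusted p = 9.33e-07) and -1.44 in MZ against T2 (-1.69 to -1.18, adjusted p = 4.19e-06). In FO against T2, Il4ra and Il21r had changes of 0.47 and 0.37 (adjusted p = 0.055 and 0.0649) and were not called. The calls of both genes in comparisons with MZ held under every alternative run.

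Il21r and Il4ra moved together. The ratio of Il21r to Il4ra RPKM lay between 1.39 and 1.95 in the 16 libraries, while each gene changed more than 3-fold between subset means (3.5 and 4.19 times). Their Pearson correlation over the 16 libraries was 0.991 on the log2 scale, the highest of the receptor pairs, a description over libraries that share their subset. By the same measure the genes most like Il21r were Parp1 (r = 0.994), Ptk2b (0.988) and Mllt6 (0.987), and those most like Il4ra were Tle1 (0.988), Parp1 (0.987) and Sptan1 (0.985). For Il9r they were Mst1 (0.991), Ttc28 (0.99) and Sh3bp1 (0.987), and for Il2ra Ddx58 (0.989), Cplx2 (0.987) and Msh3 (0.986). These were taken from 12225 tested genes. Parp1, which encodes a DNA damage-responsive polymerase, had means of 102, 119, 62.1 and 143 RPKM in T1, T2, MZ and FO.

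Il2rg, the common γ chain, differed less. It had 63.5 and 68.7 RPKM in KO MZ and 73.4 and 74.2 RPKM in WT MZ libraries, against 85.8 to 98.3 RPKM in FO and 89.2 to 100.1 RPKM in T2 libraries. T1 libraries had 57.0 to 68.2 RPKM and overlapped MZ, and T2 overlapped FO. The log2 changes passed the adjusted p but not the 2-fold limit in T2 against T1 (0.61, adjusted p = 2.11e-04), MZ against T2 (-0.44, adjusted p = 6.32e-04) and MZ against FO (-0.39, adjusted p = 0.00155). With the fold limit dropped, 5 of 10 receptors passed in T2 against T1, 9 in MZ against T2, 3 in FO against T2 and 7 in MZ against FO, where 26%, 42.4%, 9.8% and 37.3% of all tested genes passed.

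Ifnar1, a chain of the type I interferon receptor, was close to the fold limit. Its MZ libraries had 19.3 and 20.7 RPKM in KO and 18.8 and 21.3 RPKM in WT, against 41.8 and 37.3 RPKM in KO T2 and 40.5 and 40.3 RPKM in WT T2 libraries. T1 libraries lay at 36.9 to 43.3 RPKM and FO libraries at 33.0 to 35.5 RPKM. The MZ libraries were apart from all others. The log2 change in MZ against T2 was -0.98 (95% interval -1.14 to -0.82, adjusted p = 1.98e-06), just short of 2-fold, and it passed that limit under median-ratio scaling (-1.0) and without KO T2 replicate 2, KO MZ replicate 2 or WT MZ replicate 2 (-1.02, -1.0 and -1.02), and without the replicate 2 libraries of T1 and T2 (-1.02). In MZ against FO it was -0.75 (adjusted p = 1.44e-05). Ifnar2, the partner chain, lay at 12.2 to 17.6 RPKM, with a change of 0.11 in MZ against T2 (adjusted p = 0.33).

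Ifngr1, the ligand-binding chain for interferon γ, and Ifngr2, its partner, were both lowest in T1. Ifngr1 had means of 24.8 ± 2.26, 36.5 ± 1.9, 31.8 ± 1.53 and 34.5 ± 0.749 RPKM in T1, T2, MZ and FO (SD, n = 4 each), and the T1 libraries overlapped no other subset. In T2 against T1 its log2 change was 0.55 (adjusted p = 1.77e-04), and that of Ifngr2 was 0.53 (adjusted p = 4.79e-04). The other changes of Ifngr1 were -0.20 in MZ against T2 (adjusted p = 0.0284), -0.08 in FO against T2 and -0.11 in MZ against FO, and the last 2 did not pass.

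Tnfrsf1b had its highest levels in MZ libraries. It had 14.0 and 14.9 RPKM in KO MZ and 18.7 and 16.5 RPKM in WT MZ libraries, against 12.6 and 11.4 RPKM in KO FO and 12.2 and 10.2 RPKM in WT FO libraries. T1 lay at 8.28 to 10.5 RPKM and T2 at 7.79 to 12 RPKM, and T1, T2 and FO overlapped one another. The log2 change was 0.69 in MZ against T2 (95% interval 0.44 to 0.94, adjusted p = 6.42e-04) and 0.45 in MZ against FO (0.20 to 0.70, adjusted p = 0.01), both short of 2-fold. Tnfrsf1a, which encodes the other TNF receptor, was too low to be tested, at 0.0572 to 0.934 RPKM.

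Il10ra was the steadiest of the receptors, at 59.2 to 84.4 RPKM. Its subset means differed by 1.23 times, and neighbours in the order FO, T2, T1 and MZ overlapped. Its log2 change of -0.30 in MZ against FO passed the adjusted p (0.0298) without reaching 2-fold, and none of the others passed. The partner chain Il10rb had 16.5 to 24.0 RPKM.

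Il5ra had means of 27.2 ± 8.99, 34.3 ± 5.02, 21.5 ± 4.06 and 19.3 ± 1.77 RPKM in T1, T2, MZ and FO (SD, n = 4 each). The T1 spread came from WT, with 40.3 RPKM in replicate 2 and 20.0 RPKM in replicate 1, while KO had 25.2 and 23.3 RPKM. Plasma-cell markers were high in the T1 replicate 2 libraries of both genotypes, and 7 B1-cell markers summed to 62.8 to 63.8 RPKM there and to 21.4 to 37.7 RPKM in the T1 replicate 1 libraries. Their part in this value was not tested. The log2 change was -0.67 in MZ against T2 (adjusted p = 0.022) and -0.81 in FO against T2 (adjusted p = 0.0378), both short of 2-fold.

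Csf2rb, the common β chain that Il5ra needs to signal, had a different order. Its MZ libraries had 42.8 and 38.6 RPKM in KO and 45.7 and 43.4 RPKM in WT, against 4.63 and 4.01 RPKM in KO FO and 3.83 and 4.57 RPKM in WT FO libraries. The T2 libraries had 4.82 to 5.76 RPKM and the T1 libraries 11.9 to 19.7 RPKM. MZ stood above T1, and T1 above both T2 and FO. Csf2rb was lower in T2 than in T1 (log2 change -1.34, adjusted p = 8.79e-05, with -1.64 without the transitional replicate 1 libraries and -1.04 without the replicate 2 libraries) and higher in MZ than in T2 (2.89, adjusted p = 1.03e-07) and FO (3.18, adjusted p = 6.10e-08). Its near-identical copy Csf2rb2 reached 1.56 RPKM at most, and how reads were divided between the 2 genes is uncertain.

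Of 37 other receptor chains, 23 were tested. In this list 2 were called lower in T2 than in T1 (Csf2rb and Il13ra1), 4 higher and 1 lower in MZ than in T2 (Csf2rb, Il15ra, Il6st and Il12rb1 higher, Lifr lower), 1 lower in FO than in T2 (Lifr) and 4 higher and 3 lower in MZ than in FO. Il6ra, the IL-6-binding chain, had 3.39 to 4.66 RPKM in MZ against 12.8 to 14.5 RPKM in FO libraries (log2 change -1.64, adjusted p = 4.46e-04). Lifr, a chain of the leukemia inhibitory factor receptor, had 0 to 7 reads in MZ libraries (0.0385 RPKM at most) against 1.85 to 5.05 RPKM in T2 libraries. Its call in FO against T2 (log2 change -1.53) was lost without KO T2 replicate 1 (-1.22), KO FO replicate 1 (-1.52) or WT FO replicate 1 (-1.56). The highest chains were Tgfbr2, at 59.5 to 107 RPKM, and Il17ra, at 54.8 to 83.1 RPKM, and neither was called. The call of Il12rb1 in MZ against FO (1.04) was lost without WT MZ replicate 1 (0.95), KO FO replicate 2 (0.87) or WT FO replicate 2 (0.93), and also at pseudocount 1 (0.85) and under quantile normalization (0.82), since each was then under 2-fold.

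All 11 JAK kinases and STAT factors were tested, and 1 was called. Stat4, known for signalling downstream of IL-12, had 14.4 and 25.3 RPKM in KO T2 and 15.6 and 22.8 RPKM in WT T2 libraries, against 1.17 and 2.4 RPKM in KO T1 and 1.01 and 2.4 RPKM in WT T1 libraries. It was higher in T2 than in T1 (log2 change 3.18, adjusted p = 2.33e-05, with 3.08 without the transitional replicate 1 libraries and 3.29 without the replicate 2 libraries) and lower in MZ than in FO (-1.26, adjusted p = 0.00268). Jak1, which had the highest mean of the list, lay at 55.1 to 121 RPKM and was not called. Its log2 changes passed the adjusted p but not the 2-fold limit in 2 comparisons with MZ and in T2 against T1. They were 0.83 in T2 against T1 (limma adjusted p = 9.87e-06), -0.55 in MZ against T2 (3.05e-05) and -0.75 in MZ against FO (3.24e-06).

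Among 8 TNF receptor adaptors Traf1 alone was called, an adaptor that binds TNF receptor type II together with TRAF2. It had 27.7 and 33.3 RPKM in KO MZ and 34.4 and 36.0 RPKM in WT MZ libraries, against 3.64 and 7.72 RPKM in KO T2 and 3.65 and 6.79 RPKM in WT T2 libraries. It was higher in MZ than in T2 (log2 change 2.55, adjusted p = 1.08e-04), in MZ than in FO (1.44, adjusted p = 0.00504) and in T2 than in T1 (1.5, adjusted p = 0.00662). The last change was 1.39 without the transitional replicate 1 libraries and 1.6 without the replicate 2 libraries, and its call was lost when only the libraries compared were fitted (adjusted p = 0.0568). Birc3, at 57.5 to 111 RPKM, and Traf5, at 36.0 to 63.2 RPKM, were the highest of the list and were not called. Of 17 cytokine signal inhibitors 15 were tested and 1 was called, Socs3, higher in T2 than in T1 (1.69, adjusted p = 0.0341). That call was lost without KO T1 replicate 1, WT T1 replicate 1, WT T1 replicate 2, KO T2 replicate 2, WT T2 replicate 1 or WT T2 replicate 2 (1.37 to 1.82, adjusted p = 0.0592 to 0.118). It was also lost without the transitional replicate 1 libraries (1.93) or the replicate 2 libraries (1.45), with no filter on low values, under quantile normalization and by limma-voom (adjusted p = 0.0528 to 0.272). Ptpn6, at 219 to 513 RPKM, and Sh2b3, at 62.9 to 102 RPKM, were the highest inhibitors and were not called.

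Of 20 cytokine genes 9 were tested, which gives the ligands that the B-cell libraries themselves held. In T2 against T1, 2 were called higher (Lta and Tnf) and 2 lower (Ifng and Il15). In MZ against T2, 2 were called higher (Ebi3 and Il10) and 2 lower (Ifng and Il12a). In FO against T2, 1 was called lower (Ifng), and in MZ against FO 2 higher (Il15 and Il10) and 1 lower (Il12a). Ifng, the interferon γ gene, had means of 4.6, 1.13, 0.221 and 0.232 RPKM in T1, T2, MZ and FO. Lta and Tnf, both ligands of Tnfrsf1b, were higher in T2 than in T1. Lta had 28.8 and 32.0 RPKM in KO T2 and 25.9 and 37.9 RPKM in WT T2 libraries, against 4.5 to 7.12 RPKM in T1 libraries (log2 change 2.39, adjusted p = 1.08e-05), and Tnf changed by 1.98 (adjusted p = 1.66e-04). Without the transitional replicate 1 libraries the changes were 2.38 for Lta and 1.99 for Tnf, and without the replicate 2 libraries 2.41 and 1.97. Il12a, a subunit of IL-12 and IL-35, was lower in MZ than in T2 (-1.94, adjusted p = 1.05e-05) and FO (-1.74, adjusted p = 2.49e-05). Il10, the ligand of Il10ra, had 0.848 and 10.7 RPKM in KO MZ and 11.9 and 8.11 RPKM in WT MZ libraries, against 0.112 to 0.509 RPKM (2 to 6 reads) in T2 libraries (3.03, adjusted p = 0.0118, and 2.27 to 3.8 with a library left out). It was called in WT (3.72, adjusted p = 0.0335) and not in KO (2.35, adjusted p = 0.169), and the difference did not pass (limma adjusted p = 1). It also had 2.96 and 5.54 RPKM in the T1 replicate 2 libraries of KO and WT, where plasma-cell markers were high, and 0.0683 and 0.183 RPKM in the T1 replicate 1 libraries. The highest ligand genes were Ltb, at 124 to 342 RPKM, and Tgfb1, at 42.1 to 133 RPKM, which were not called.

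**Figure D3:**
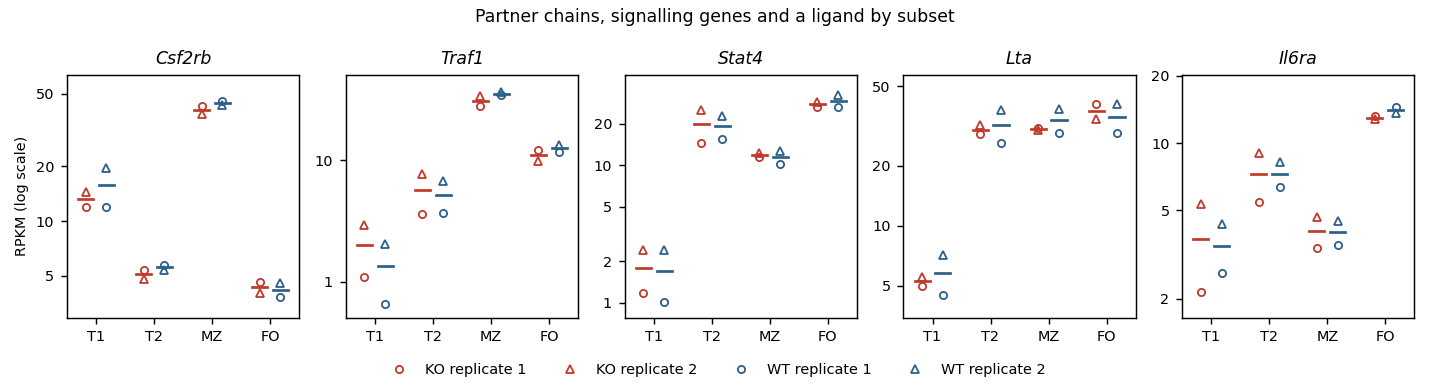
RPKM (log axis) of the common β chain Csf2rb, the adaptor Traf1, the factor Stat4, the ligand Lta and the receptor chain Il6ra in 16 libraries, drawn like the receptors, with KO (red) left of WT (blue) and bars at the mean of 2 replicates. Csf2rb and Traf1 are highest in MZ libraries, at 38.6 to 45.7 RPKM and 27.7 to 36.0 RPKM, Il6ra is highest in FO libraries, and Stat4 and Lta are lowest in T1 libraries.

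The effect of Mir146a deletion on the receptors was compared within each subset. None of the 10 was called in KO against WT in T1, T2, MZ or FO (limma, each adjusted p = 1), where 0.04%, 0.048%, 0.064% and 0.032% of all genes were called. At an unadjusted p under 0.05 the count was also 0 of 10 in each subset, where 3.51%, 3.37%, 1.65% and 0.919% of all genes passed, and limma-voom on recovered reads called 0 of 10. Across the 4 subsets together 0 of 10 were called against 0.072% of all genes, with a smallest adjusted p of 0.689 and 0 of 10 at an unadjusted p under 0.05, where 7.98% of all genes passed. The 40 values within subsets lay between -0.50 and 0.29 on the log2 scale. They do not show that KO and WT were alike, since their 95% intervals reached as low as -1.60 and as high as 1.35, both for Il9r.

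Within MZ B-cells the lowest KO against WT change was that of Il9r, with 123 and 143 RPKM in KO against 168 and 205 RPKM in WT libraries. The log2 change was -0.48 (95% interval -1.58 to 0.62, adjusted p = 1). In FO it had 22.7 and 21.1 RPKM in KO against 23.7 and 41.2 RPKM in WT libraries (-0.50, -1.60 to 0.59). Il9r lies on chromosome 11 at 11.2 Mb from Mir146, the targeted gene, and any part of this linkage in its values was not tested. Across subsets, Il9r had a change of -0.24 (-0.79 to 0.31). Il2ra, which holds the 3′ UTR match to the seed of miR-146a, had 0.21 (-0.15 to 0.57, limma adjusted p = 0.773). Il2ra had 8.55 and 4.71 RPKM in KO T1 against 6.94 and 4.42 RPKM in WT T1 libraries. In T2 it had 2.58 and 1.75 RPKM in KO against 2.31 and 1.14 RPKM in WT libraries. In MZ it had 0.495 and 0.346 RPKM in KO against 0.271 and 0.322 RPKM in WT libraries, on 25 to 34 reads. Its changes in the 4 subsets were 0.15 to 0.29, and none passed an unadjusted p under 0.05. With a library left out, the change of Il2ra ranged over -0.22 to 0.58 in T1 and -0.10 to 0.68 in T2. Tnfrsf1b had 14.0 and 14.9 RPKM in KO MZ against 18.7 and 16.5 RPKM in WT MZ libraries (-0.27, -0.63 to 0.09) and 9.38 and 12 RPKM in KO T2 against 10 and 7.79 RPKM in WT T2 libraries.

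**Figure D4:**
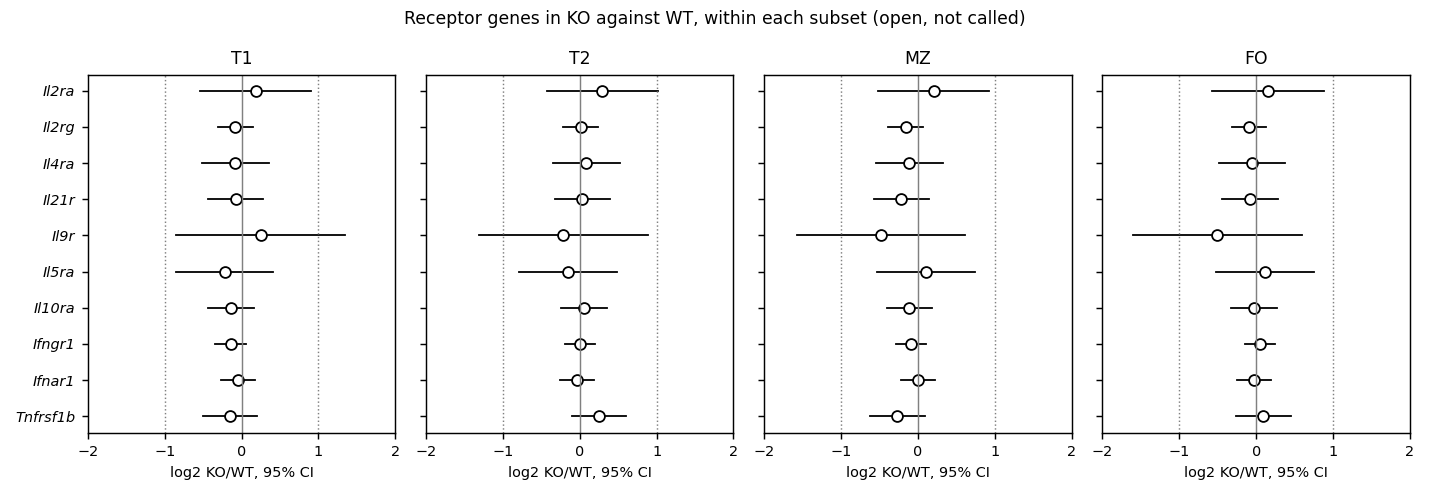
Log2 fold change of KO against WT with its 95% confidence interval for each receptor gene within T1, T2, MZ and FO (n = 2 libraries per genotype), with dotted lines at a 2-fold change and open points since none was called. All 40 points lie between -0.50 and 0.29, and the widest intervals are those of Il9r.

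The changes at the T2 to MZ step were present in each genotype. Il9r, Il4ra, Il21r and Il2ra were called in MZ against T2 in KO, where 9.44% of all genes were called, and the same 4 genes in WT, where 10.6% were called. The log2 changes in KO and in WT were 3.82 and 4.09 for Il9r, -1.67 and -1.47 for Il4ra, -1.56 and -1.31 for Il21r and -1.52 and -1.43 for Il2ra. The same 4 genes were called in KO and in WT by limma-voom, which also called Ifnar1 (-1.01) and Tnfrsf1b (1.01) in WT. The call of Il2ra was lost in KO without KO T2 replicate 1 (-1.29, adjusted p = 0.058) and in WT without WT T2 replicate 1 (-1.04, adjusted p = 0.0734) or WT MZ replicate 1 (-1.39, adjusted p = 0.0529). The difference of this step between KO and WT was tested directly, and 0 of 10 receptors passed an adjusted p of 0.05, where 0.008% of all genes did. At an unadjusted p under 0.05 there was 1 of 10, where 1.66% of all genes passed, namely Tnfrsf1b, whose log2 change was 0.43 in KO and 0.95 in WT (difference -0.52, 95% interval -1.02 to -0.02, limma adjusted p = 1), and limma-voom called 0.

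In FO against T2, 0 of 10 receptors were called in KO, where 0% of all genes were called, and 0 of 10 in WT, where 0.184% were called. At an unadjusted p under 0.05 there were 4 of 10 in KO and 6 of 10 in WT, where 12% and 20.9% of all genes passed, and limma-voom called 0 in each. Il9r had a log2 change of 1.25 in KO and 1.54 in WT, and Il2ra -1.37 in KO and -1.23 in WT. The difference of this step between KO and WT gave 0 of 10 receptors, also at an unadjusted p under 0.05 and by limma-voom, where 0.008% of all genes passed the adjusted and 0.983% the unadjusted p.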

How the data were processed

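RNA-Seq was performed on sorted B-cells from pooled spleens, with 2 libraries for each of 8 groups. The authors mapped uniquely aligned reads to mm10 with TopHat, deposited RPKM values computed with Perl scripts and tested with DESeq and edgeR, with no version stated. Multiplying back by length and depth gave whole reads, to within 0.01, for each of the 23194 genes with a value above 0, at the GENCODE exon length for 13395 and otherwise at the shortest length that did so, and totals were 9003343 to 26386684 per library. Values of log2(RPKM + 0.5) were fitted with limma 3.58.1 (R 4.3.3) over all 16 libraries and 8 groups, with a variance trend, for 12507 genes with a group mean above 1 RPKM, and p-values were adjusted over all of them. P-values measure only the spread between these pools. The members, gene lists and motif letters were chosen with earlier results of these data known. The text names every member and, from each of 5 lists, up to 4 called genes with the largest change and the 2 highest by mean RPKM, with the 3 genes most like each of 4 members. A gene that the rule names is not reported here. Il13ra1, Il15ra, Il6st, Csf2rb2, Ifnar2, Ifngr2, Il10rb, Tnfrsf1a, Ifng, Il15 and Ebi3 were added after their values were seen where the rule did not name them. Scripts were tested on simulated data. Alternatives changed the pseudocount, filter, scaling, tool (limma-voom on recovered reads), libraries and replicate block.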

Additional observations from a re-analysis of the deposited data

How the results depend on the processing

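The direction and call of 4347 of 4436 receptor results held under 16 fits that left out a library and the other alternatives, 22 calls were lost, 38 were gained and 29 values changed sign. With no fold criterion, 5 receptors passed in T2 against T1, 9 in MZ against T2, 7 in MZ against FO and 7 in MZ against T2 in WT. In FO against T2, 1 receptor was called at pseudocount 0.1, at pseudocount 1, with no filter on low values and with only the libraries compared, and 0 to 2 with a library left out. In alternatives chosen after seeing the data, 0 were called in FO against T2 without the transitional replicate 1 libraries (0.767% of all genes), and 3 in WT (2.95%) and 1 in KO (1.16%) without the replicate 2 libraries. The cause was not tested.

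Over all genes, FO against T2 gave 143 calls, 83 to 214 under other settings and 15 to 192 with a library left out. In WT it gave 23 calls, 0 to 69 and 0 to 107. KO against WT gave 5 calls in T1 and 6 in T2, with 32 and 35 at most when a library was left out.

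None of the sign changes touched a called value. Under quantile normalization Il10ra in MZ against T2 in WT was 0.037 (-0.11 otherwise). With a library left out, Il10ra in T2 against T1 ranged over -0.059 to 0.14, and in FO against T2 in KO Ifngr1 ranged over -0.15 to 0.032 and Tnfrsf1b over -0.0019 to 0.34. For KO against WT in T1 the ranges were -0.22 to 0.58 for Il2ra, -0.37 to 0.21 for Il4ra, -0.72 to 0.27 for Il5ra, -0.30 to 0.80 for Il9r, -0.34 to 0.0625 for Il10ra, -0.25 to 0.10 for Il21r and -0.16 to 0.069 for Ifnar1. In T2 they were -0.10 to 0.68 for Il2ra, -0.88 to 0.45 for Il9r and -0.088 to 0.0925 for Ifngr1.

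Without the transitional replicate 1 libraries, signs changed for Il5ra in T2 against T1 (-0.0191), Tnfrsf1b in FO against T2 in KO (-0.0019), and for KO against WT of Tnfrsf1b in T1 (0.0259) and across subsets (0.1105) and Ifngr1 across subsets (0.003). Without the replicate 2 libraries they changed in T2 against T1 for Il4ra (-0.0938) and Il10ra (-0.1736), in FO against T2 for Il2rg (0.0262) and, in KO, Ifngr1 (0.032), in KO against WT for Il5ra in T1 (0.3289) and across subsets (0.1059) and in T2 for Ifngr1 (-0.0966) and Tnfrsf1b (-0.0934), and for Tnfrsf1b in the difference of FO against T2 between KO and WT (0.1888).

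The labels do not say what a replicate number marks. Deviations of same-numbered libraries correlated at 0.0756 to 0.453 between subsets of a genotype and at -0.227 to 0.3 between KO and WT. With the replicate block, 2, 4, 2 and 3 receptors were called in T2 against T1, MZ against T2, FO against T2 and MZ against FO, and 0 in KO against WT. The crossed pairing, added after seeing the data, gave 7 genes in MZ and 4 in FO for KO against WT.

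With 2 libraries a group, KO and WT differences of Il9r have 95% intervals from -1.60 to 1.35, and 7 to 60 reads of Il9r in T1 limit its fold change there.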

Other observations

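The genes within 200 kb of Il9r and of the neighbouring Il4ra and Il21r were looked at after the receptors' values were seen. Around Il4ra and Il21r, 4 other genes were tested. Nsmce1, which encodes a subunit of the SMC5/6 complex, was lower in MZ than in T2 (log2 change -1.81, limma adjusted p = 9.35e-08) and in MZ than in FO (-1.86, adjusted p = 7.12e-08). Kdm8, Gtf3c1 and D430042O09Rik had changes of 0.02, 0.17 and 0.13 in MZ against T2 and were not called.

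Around Il9r, 5 other genes were tested. Rhbdf1 was higher in MZ than in T2 (3.66, adjusted p = 5.29e-06) and in MZ than in FO (2.29, adjusted p = 1.69e-04), and Mpg, a DNA repair glycosylase gene, was higher in MZ than in T2 (1.11, adjusted p = 1.64e-04). Nprl3, Snrnp25 and Hba-a1 had changes of 0.92, 0.42 and 0.01 in MZ against T2 and were not called. That of Nprl3 passed the adjusted p (limma, 5.98e-06) without reaching 2-fold. In T2 against T1, Rhbdf1 (0.96, adjusted p = 0.0404) and Snrnp25 (0.84, adjusted p = 0.00465) passed it short of 2-fold. Nprl3, Mpg and Hba-a1 did not pass there. Nprl3 overlaps Mpg, and reads of the overlap cannot be assigned to either.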
